A study of Arabidopsis thaliana with 12 samples.

Results

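Peroxisomal fatty acid β-oxidation was followed through its core genes in the first cells of the Arabidopsis embryo and their descendants. The core was taken as 10 named genes, matched by their gene identifiers and not by any measured value. They were the acyl-CoA oxidase genes ACX1, ACX2, ACX3 and ACX4, the multifunctional protein genes MFP2 and AIM1, the thiolase gene KAT2, the peroxisomal acyl-CoA synthetase genes LACS6 and LACS7, and the importer gene PXA1. All 10 were among the 32399 genes of the files, and all 10 passed the filter on low values.

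RNA was measured in wild-type embryos (labelled Col) grown under long days at 22 °C, with 3 libraries in each of 4 groups: the apical cell (AC) and basal cell (BC) that arise from the zygote's first division (a stage the labels call 2-celled and the design text 1-cell, the name used here), and, from embryos labelled as 32-celled, the suspensor (32S) and the embryo proper (32E). The source names of the later libraries carry differing cell numbers, so their stage rests on the stage label. No treatment or mutant was used, and every group shared the same isolation, in which seeds were softened with wall-digesting enzymes, embryos were freed by hand and the lineages were separated by laser microdissection. Each library held RNA of a small pool of cells that was amplified before sequencing, and the labels name a pair of library kits without saying which library had which. The values are FPKM, fragments scaled to transcript length and to the library's total, which allow levels of different genes to be compared, and the read depth behind them is not known from these files. In such bulk pools, fewer cells of a type and less RNA per cell cannot be told apart.

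β-Oxidation shortens fatty acids inside the peroxisome. Fatty acids enter as acyl-CoA through an ABC transporter, are activated by acyl-CoA synthetases, and then pass through repeated rounds of oxidation, hydration, a further oxidation and thiolytic cleavage that release acetyl-CoA. In Arabidopsis the pathway breaks down seed oil after germination, and it also finishes the synthesis of jasmonic acid and converts indole-butyric acid into the auxin indole-acetic acid. The oxidases are specialised by chain length, so the cell holds several of them, and each transfers electrons to oxygen and makes hydrogen peroxide.

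The core genes are spread over all 5 chromosomes (TAIR10.1 coordinates). The oxidase genes lie at chr4:9424534-9428895 on the minus strand (ACX1), chr5:26009521-26012684 on the minus strand (ACX2), chr1:1922208-1926278 on the plus strand (ACX3) and chr3:19225360-19229341 on the minus strand (ACX4). MFP2 lies at chr3:2161735-2166357 on the plus strand, AIM1 at chr4:14297044-14302287 on the minus strand and KAT2 at chr2:14047478-14051400 on the minus strand. LACS6 lies at chr3:1786279-1791887 on the minus strand, LACS7 at chr5:9742492-9747024 on the plus strand and PXA1 at chr4:18488434-18497266 on the plus strand. All carry 6 or more exons, up to 26 in PXA1. AIM1 alone overlaps another annotated gene, by 23 bases on the opposite strand, and the library kit does not mark strand. ACX3 has a near-copy, ACX6, that starts 373 bases after it on the same strand.

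The 3 core genes that rose from BC to 32S were ACX1, ACX4 and AIM1, and the 250 bases before their annotated starts are shown for that reason (RefSeq, TAIR10.1, written 5′ to 3′ along the gene). Capitals mark CACGTG, the G-box core, and TTGAC on either strand (GTCAA on the other), the W-box core bound by WRKY factors. The searched motifs do not overlap one another.
ACX1, chr4:9428896-9429145, minus strand: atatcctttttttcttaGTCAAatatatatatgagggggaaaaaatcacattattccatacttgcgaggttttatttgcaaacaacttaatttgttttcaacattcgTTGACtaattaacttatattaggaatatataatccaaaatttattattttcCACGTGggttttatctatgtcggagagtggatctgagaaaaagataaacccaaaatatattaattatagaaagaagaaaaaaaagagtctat
ACX4, chr3:19229342-19229591, minus strand: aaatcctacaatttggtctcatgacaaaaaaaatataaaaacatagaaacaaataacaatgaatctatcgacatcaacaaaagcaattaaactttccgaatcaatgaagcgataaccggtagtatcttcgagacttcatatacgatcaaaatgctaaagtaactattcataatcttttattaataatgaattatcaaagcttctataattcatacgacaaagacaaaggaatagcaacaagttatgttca
AIM1, chr4:14302288-14302537, minus strand: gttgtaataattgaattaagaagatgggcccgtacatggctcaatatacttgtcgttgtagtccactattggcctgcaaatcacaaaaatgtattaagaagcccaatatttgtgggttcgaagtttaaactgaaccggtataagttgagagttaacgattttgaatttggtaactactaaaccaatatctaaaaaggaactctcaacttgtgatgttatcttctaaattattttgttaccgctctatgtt
The ACX1 window held 1 CACGTG, 92 bases before the start, and TTGAC on each strand. Neither motif was in the ACX4 or AIM1 window. CACGTG was in 1 of the 10 core windows and in 6.49% of 27444 windows of protein-coding genes, and TTGAC was in 4 of 10 (ACX1, ACX2, ACX3, LACS7) and in 44.9% of all windows.

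Before the members are described, the libraries were checked against their labels. Summed FPKM per library was between 833418 and 955228, and 13034 to 15322 genes were above FPKM 1. WOX8, a homeobox gene of the basal lineage, averaged FPKM 350.04 in BC and 428.5 in 32S, against 8.45 in AC, and was listed at 0 in 32E. HAN, a GATA factor gene of the apical lineage, averaged 167 in 32E and was listed at 0 in 32S. The apical marker WOX2 was not lower in BC (158) than in AC (113), so at the 1-cell stage it did not mark the apical side. ATML1, also listed as apical, was lower in AC (62.3) than in BC (72.9). It still reached 14.0 to 32.5 among 32S libraries. WOX9, listed as basal, was at 75.9 to 105 among 32E libraries, below its 244 to 361 in the suspensor. Of 5 listed apical markers, 2 were higher and 2 lower in AC than in BC without overlap. At the later stage all 5 were higher in 32E than in 32S. All 3 basal markers were lower in the apical lineage at both stages. The 32S library of replicate 2 stood apart from the other 32S libraries. Its 20 highest genes held 15.6% of its FPKM against 11.6% and 11.8%, and PDF1, a gene of the embryo's outer layer, was at FPKM 1941 against 503 and 897. Endosperm markers summed to at most FPKM 6.73 over 8 genes in any library, and seed coat markers to between 3.86 and 46.2 over 11 genes. The seed coat sum was highest in 32E, at 34.5 to 46.2, beside 3.86 to 12.2 in 32S, 8.86 to 15.4 in AC and 23.8 to 28.4 in BC. In 32E it was mostly STK (17.05 to 18.98) and MUM4 (17.4 to 28.3).

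Across the 4 groups the core was lowest in the embryo proper and highest in the suspensor. Summed FPKM of the 10 genes was 168.9, 196.8 and 182.8 in 32E and 1225, 1227 and 1262 in 32S. It was 321.9, 410.3 and 356.8 in AC and 749, 696.9 and 719.9 in BC, so no 2 groups overlapped. KAT2 alone made up most of this difference between AC and BC, with a mean of FPKM 109 ± 23.7 (SD, n = 3) in AC and 409 ± 14.7 in BC. 7 genes had their highest mean in 32S (ACX1, ACX3, ACX4, AIM1, KAT2, LACS6, PXA1), and in all 7 the 32S libraries lay above every other library. 9 genes had their lowest mean in 32E, and for 8 of them the 32E libraries lay below every other. The exception among the lowest was ACX1, whose lowest mean was in AC. The share of all tested genes with such orders was not computed, so these counts only describe the core.

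**Figure D1:**
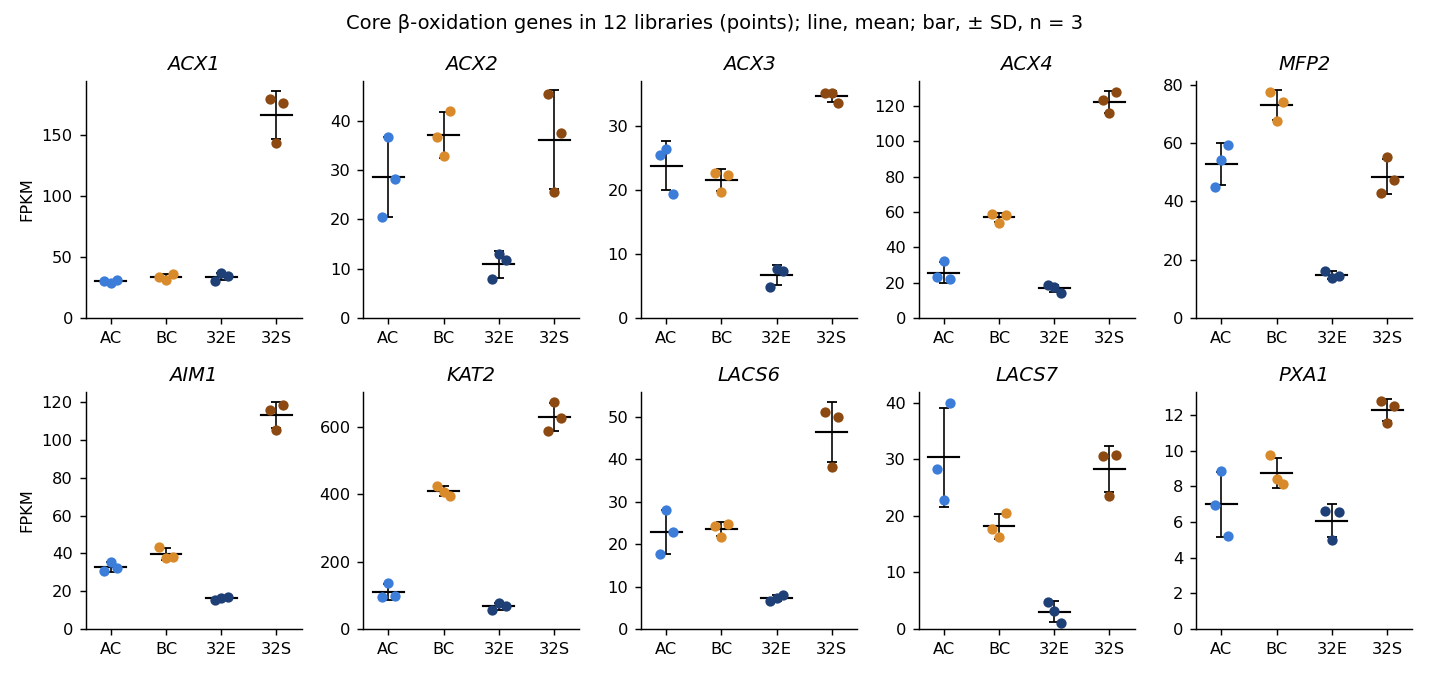
FPKM of each of the 10 core genes (vertical axis, own scale per gene, starting at 0) in the 3 libraries of AC, BC, 32E and 32S; points are libraries, horizontal lines group means and bars ± SD. KAT2 reached 589 to 674 in 32S, and 9 of 10 genes had their lowest mean in 32E. The share of all tested genes lowest in 32E was not computed.

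Differences were tested with limma on log2(FPKM + 1) over 17060 genes, with Benjamini-Hochberg adjustment over all of them, and calls required both an adjusted p below 0.01 and a change of 1 or more on that log2 scale. This scale understates the change of low genes. In 32E against 32S, 9 of the 10 core genes were called lower and 0 higher, where 22.6% of all tested genes were called lower and 23.8% higher. All 10 core genes were lower in every 32E library than in any 32S library, which held for 34.3% of tested genes. The median change of the core was -2.38 beside 0.0479 over all tested genes. The uncalled gene was PXA1. Since these members were chosen with results of these data known, the counts describe them and carry no test of the list.

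In AC against BC, 2 core genes were called lower (ACX4 and KAT2) and 0 higher, against 18.4% lower and 19.0% higher over all tested genes. That is close to the background. The median core change was -0.287 beside 0 over all genes, and AC and BC did not overlap for 5 genes that were lower in AC and 1 that was higher (33.6% and 32.9% of tested genes).

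From AC to 32E, 5 core genes fell (ACX2, ACX3, MFP2, LACS6, LACS7) and 0 rose, where 14.3% of tested genes fell and 13.1% rose. From BC to 32S, 3 rose (ACX1, ACX4, AIM1) and 0 fell, where 25.3% rose and 26.7% fell, so the share that rose was near the background. These comparisons share no libraries with each other, but each shares a group with 32E against 32S. The groups did not overlap for 8 core genes that were lower in 32E than in AC (32.9% of tested genes, and 27.9% in the other direction), and in 32S against BC for 8 that were higher and 1 that was lower, MFP2 (35.5% and 40.3%). The medians were -1.14 in the apical lineage and 0.641 in the basal lineage. The 5 genes that fell in the apical lineage had no call in the basal lineage, a pattern of 7.02% of tested genes. The 3 that rose in the basal lineage had no call in the apical lineage, a pattern of 17.6%. No core gene was called in both lineages (14.1% of tested genes), and KAT2 and PXA1 were called in neither (34.7%). Without 32S replicate 2 the count that rose became 4, with LACS6 added (1.07), and without AC replicate 1 the count that fell became 6, with AIM1 added (-1.02), while the 9 calls of 32E against 32S stayed at 9.

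Whether the lineages differed in their change was tested by the interaction, the difference between 32E and 32S minus that between AC and BC. It was called negative for 8 core genes and positive for 0, against 25.8% and 27.0% of tested genes. The other two were ACX2 (-1.23 ± 0.37 SE, limma adjusted p = 0.0105) and PXA1 (-0.61 ± 0.30, adjusted p = 0.0882). The ACX2 interaction was called without AC replicate 1 (-1.44) and without 32S replicate 2 (-1.46).

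**Figure D2:**
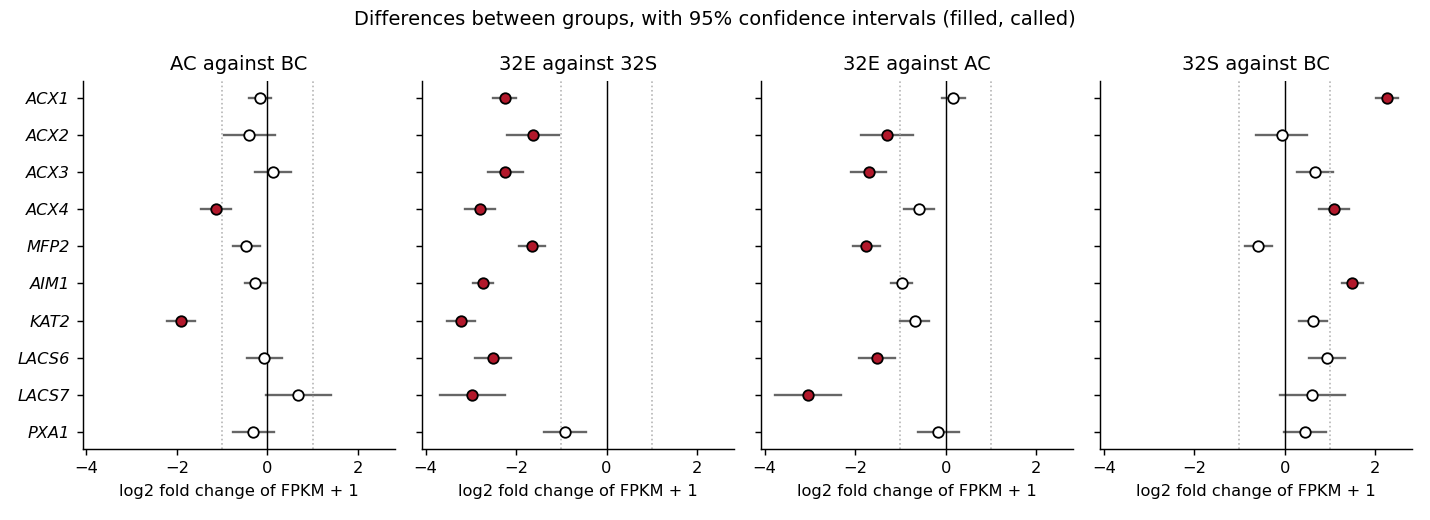
Log2 fold change of FPKM + 1 (horizontal axis) of each core gene in the 4 comparisons, with 95% confidence intervals from limma; filled points were called, and dotted lines mark a change of 1 in either direction. 9 of 10 genes were called lower in 32E than in 32S, and only ACX4 and KAT2 were called in AC against BC.

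The entry and activation step held the lowest gene of the core and some of its steepest changes. PXA1 (AT4G39850) encodes the ABC transporter that brings fatty acids and acyl-CoAs into the peroxisome. Its FPKM was 6.93, 8.85 and 5.22 in AC, 9.74, 8.39 and 8.13 in BC, 6.63, 5.0 and 6.59 in 32E, and 12.8, 11.6 and 12.5 in 32S. Only 32S stood clear, and AC, BC and 32E overlapped one another. The mean in 32S was 2.02 times that in 32E, and the change of -0.92 ± 0.21 (SE) fell short of the fold minimum (limma adjusted p = 0.00223). It passed at -1.02 with a pseudocount of 0.1.

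LACS6 (AT3G05970) and LACS7 (AT5G27600) encode the pair of long-chain acyl-CoA synthetases of the peroxisome, which together are needed for normal oil breakdown in seedlings. LACS6 was at FPKM 17.7, 28.1 and 22.8 in AC, 24.2, 21.7 and 24.8 in BC, 6.48, 7.38 and 7.93 in 32E, and 51.1, 38.2 and 50.05 in 32S. AC and BC overlapped, while every 32E library was below and every 32S library above them. LACS6 fell by 1.51 ± 0.18 (log2, SE, limma adjusted p = 3.65e-05) from AC to 32E, and its difference of 0.94 between 32S and BC was just under the fold minimum (adjusted p = 0.000606). In 32S it was 6.39 times its level in 32E (-2.51 ± 0.18 for 32E against 32S, adjusted p = 1.68e-07). LACS7 was at FPKM 28.3, 22.8 and 40.01 in AC, 17.7, 16.2 and 20.5 in BC, 4.77, 3.23 and 1.10 in 32E, and 30.7, 23.5 and 30.7 in 32S. It was the only core gene with its highest mean in AC (30.4 ± 8.79, SD, n = 3), though AC and 32S overlapped. It fell by 3.04 ± 0.33 (adjusted p = 1.64e-05) from AC to 32E, the steepest fall of the 10, and 32S exceeded 32E by 9.32 times in mean FPKM (-2.97 ± 0.33 for 32E against 32S, adjusted p = 7.41e-06). The ratio of LACS6 to LACS7 was 1.67, 1.62 and 1.63 in 32S and 1.37, 1.34 and 1.21 in BC, but spread from 1.36 to 7.21 among the 32E libraries, where LACS7 was near FPKM 1 in replicate 3.

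The oxidases carry out the first and committed oxidation, and their genes did not move as a block. ACX1 (AT4G16760) acts on medium to long chains and also serves jasmonate synthesis. It was at FPKM 30.3, 28.8 and 31.1 in AC, 33.9, 31.4 and 35.9 in BC, 30.7, 36.8 and 34.4 in 32E, and 179, 143 and 176 in 32S. AC, BC and 32E therefore lay between 28.8 and 36.8, and 32S lay about 5-fold above: 4.92 times BC (2.26 ± 0.11 log2, SE, limma adjusted p = 9.69e-09) and 4.89 times 32E (-2.25 ± 0.11 for 32E against 32S, adjusted p = 7.93e-09). The difference between 32E and AC was 0.17, with a 95% interval of -0.08 to 0.42.

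ACX2 (AT5G65110), the long-chain oxidase, was at FPKM 20.6, 36.7 and 28.2 in AC, 36.6, 32.8 and 41.9 in BC, 7.91, 13.0 and 11.8 in 32E, and 45.3, 25.5 and 37.6 in 32S. BC, 32S and AC overlapped, and all 32E libraries lay below them. ACX2 fell by 1.3 ± 0.26 (SE, limma adjusted p = 0.00139) from AC to 32E, while the difference between 32S and BC was -0.07 (95% interval -0.63 to 0.50). The difference between 32E and 32S was -1.63 ± 0.26 (adjusted p = 0.000145). The fall from AC was no longer called when only those groups were fitted (adjusted p = 0.012).

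ACX3 (AT1G06290), the medium-chain oxidase, was at FPKM 25.4, 26.4 and 19.4 in AC, 22.6, 19.6 and 22.3 in BC, 4.87, 7.72 and 7.37 in 32E, and 35.05, 35.01 and 33.5 in 32S. AC and BC overlapped between the other groups. ACX3 fell by 1.70 ± 0.18 (SE, limma adjusted p = 1.34e-05) from AC to 32E and was 5.19 times as high in 32S as in 32E (-2.24 ± 0.18, adjusted p = 4.29e-07), while 32S against BC, at 0.66, did not reach the fold minimum.

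ACX4 (AT3G51840), the short-chain oxidase, was at FPKM 23.03, 32.5 and 22.0 in AC, 58.8, 54.0 and 58.5 in BC, 18.6, 17.5 and 14.3 in 32E, and 123, 116 and 128 in 32S. The 4 groups did not overlap, in the order 32S, BC, AC and 32E. ACX4 was 2.21 times as high in BC as in AC (-1.13 ± 0.15 for AC against BC, SE, limma adjusted p = 5.03e-05), 2.14 times as high in 32S as in BC (1.09 ± 0.15, adjusted p = 4.3e-05) and 7.28 times as high in 32S as in 32E (-2.80 ± 0.15, adjusted p = 1.22e-08). The BC to 32S call was lost when libraries were scaled to a common sum of FPKM, where the change was 0.95.

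The family has 2 more measured members, both near-copies. ACX5 matched ACX1 over 80.3% of aligned transcript bases, with identical stretches of up to 47 bases, and ACX6 matched ACX3 over 86.5%, with stretches of up to 63 bases. How reads were divided between such near-copies was not examined. The values of both genes of each pair are therefore uncertain, as are shares and ratios that use them. ACX5 was at FPKM 14.6 ± 1.22 (SD, n = 3) in 32S and between 3.53 and 4.34 on average elsewhere, and rose from BC to 32S (1.79 ± 0.32 SE, limma adjusted p = 0.000338). ACX6 ran the other way, with 19.3, 20.6 and 25.9 in AC, 11.95, 16.3 and 10.6 in BC, 6.26, 6.83 and 9.06 in 32E and 3.54, 5.13 and 4.49 in 32S. It was the oxidase gene that fell in both lineages, with -1.45 ± 0.22 from AC to 32E (adjusted p = 0.000244) and -1.36 ± 0.22 from BC to 32S (adjusted p = 0.000184), with an interaction of -0.09 (95% interval -0.79 to 0.60).

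Expressed as shares of the summed FPKM of ACX1 to ACX6, the make-up of the oxidases differed with stage as well as with lineage. ACX1 held 22.6% ± 3.02 (SD, n = 3) in AC and 20.3% ± 0.407 in BC, and 42.7% ± 1.17 in 32E and 43.8% ± 1.31 in 32S. The 32-cell libraries, at 41.5% to 44.6%, thus overlapped between the lineages in their ACX1 share, although the summed FPKM was 79.6 ± 6.75 in 32E and 378 ± 34.8 in 32S. ACX4 divided the lineages instead, at 34.4% ± 0.575 in BC and 32.5% ± 1.74 in 32S against 19.1% ± 2.30 in AC and 21.3% ± 4.37 in 32E. ACX2 and ACX3 took smaller shares at the later stage in both lineages, with ACX2 at 21.0% and 22.3% in AC and BC and 13.6% and 9.45% in 32E and 32S, and ACX3 at 17.7% and 12.9% and then 8.29% and 9.19%. ACX6 was 16.4% ± 3.27 in AC and 1.18% ± 0.319 in 32S.

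**Figure D3:**
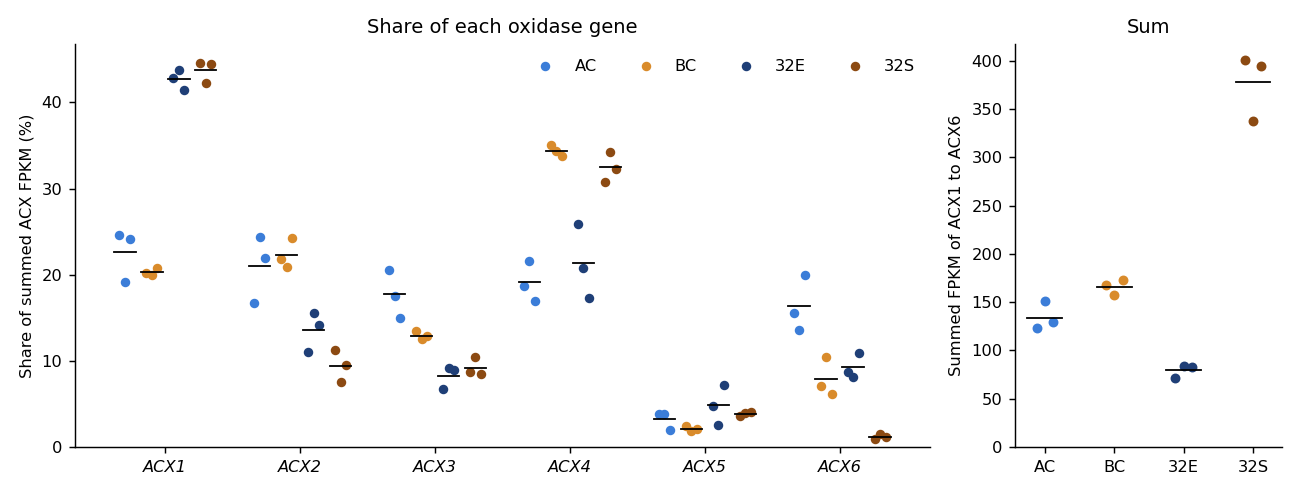
Share of each oxidase gene in the summed FPKM of ACX1 to ACX6 (left, percent) and that sum in FPKM (right), per library, with lines at group means. ACX1 lay between 41.5% and 44.6% in all 6 libraries of the 32-cell stage and between 19.1% and 24.6% in the 6 earlier ones.

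Ratios of genes within 1 library do not depend on the library's total. ACX1 over ACX3 was 1.19, 1.09 and 1.6 in AC and 1.5, 1.61 and 1.61 in BC, but 6.31, 4.77 and 4.67 in 32E and 5.1, 4.09 and 5.26 in 32S. The later groups overlapped with each other and not with the earlier ones. ACX4 over ACX3 was 0.906, 1.23 and 1.13 in AC against 2.6, 2.76 and 2.62 in BC. Of 20 comparisons of ratios, 13 had groups that did not overlap, each with an exact permutation p = 0.1 (two-sided), the smallest that 3 against 3 libraries can give, and 0.154 after Benjamini-Hochberg adjustment over the 20. None could therefore pass 0.05. How often ratios of other gene pairs do not overlap was not computed.

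The multifunctional proteins carry out hydration and the second oxidation, and here the pair parted. MFP2 (AT3G06860), the main form in seedling oil breakdown, was at FPKM 45.0, 54.1 and 59.1 in AC, 77.4, 67.6 and 74.0 in BC, 16.3, 13.8 and 14.4 in 32E, and 42.9, 55.0 and 47.5 in 32S. BC was highest, AC and 32S overlapped, and 32E was lowest. MFP2 fell by 1.76 ± 0.13 (SE, limma adjusted p = 9.84e-07) from AC to 32E, and its difference between 32S and BC, -0.59 ± 0.13 (adjusted p = 0.00196), was under the fold minimum, with all 32S libraries below all BC libraries. AIM1 (AT4G29010), known for its part in inflorescence growth and jasmonate synthesis, was at FPKM 30.6, 35.7 and 32.3 in AC, 43.2, 37.7 and 38.2 in BC, 15.3, 16.5 and 16.8 in 32E, and 116, 105.5 and 119 in 32S. Its groups did not overlap, and it rose from BC to 32S by 1.49 ± 0.11 (adjusted p = 1.5e-07). From AC to 32E its difference of -0.97 ± 0.11 (adjusted p = 1.64e-05) was just under the fold minimum. In 32E against 32S both were called, at -1.64 ± 0.13 for MFP2 (adjusted p = 4.94e-07) and -2.73 ± 0.11 for AIM1 (adjusted p = 9.02e-10), means 3.27 and 6.99 times as high in 32S.

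MFP2 thus exceeded AIM1 at the 1-cell stage and AIM1 exceeded MFP2 in the suspensor. MFP2 over AIM1 was 1.47, 1.52 and 1.83 in AC, 1.79, 1.79 and 1.94 in BC, 1.06, 0.834 and 0.855 in 32E, and 0.37, 0.522 and 0.4 in 32S. The 32-cell groups overlapped neither the earlier groups nor each other, and the difference in log2 ratio was -2.11 for 32S against BC and -0.81 for 32E against AC (exact permutation p = 0.1 for each, the smallest possible).

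**Figure D4:**
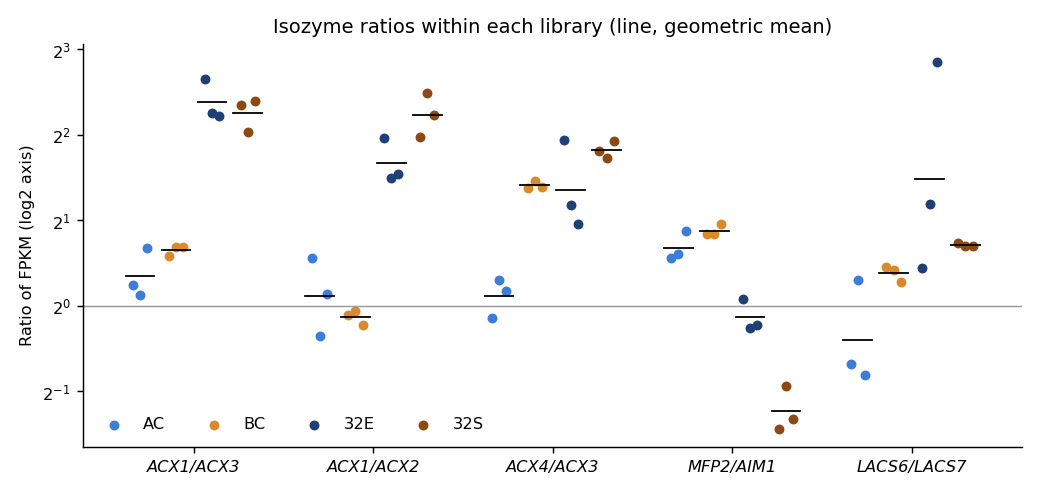
Ratio of FPKM of 5 pairs of core genes within each library (vertical axis, log2 scaled), with lines at geometric means. ACX1/ACX3 was between 1.09 and 1.61 in AC and BC and between 4.09 and 6.31 in 32E and 32S, while MFP2/AIM1 fell under 1 in all 32S libraries.

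The thiolase that closes the cycle was the most abundant member. KAT2 (AT2G33150) encodes the main peroxisomal ketoacyl-CoA thiolase, needed for seedling oil breakdown. It was at FPKM 94.2, 136 and 96.5 in AC, 425, 408 and 396 in BC, 57.2, 75.9 and 68.1 in 32E, and 589, 674 and 628 in 32S. The 4 groups did not overlap, and KAT2 was high in both basal-lineage groups and low in both apical-lineage groups. It was 3.75 times as high in BC as in AC (-1.92 ± 0.14 for AC against BC, SE, limma adjusted p = 6.49e-07) and 9.40 times as high in 32S as in 32E (-3.22 ± 0.14, adjusted p = 2.63e-09), beside 9.32 times for LACS7. Their order was reversed on the log2 scale when the pseudocount was 0.1. Neither change with stage reached the fold minimum, at -0.68 ± 0.14 from AC to 32E (adjusted p = 0.00199) and 0.62 ± 0.14 from BC to 32S (adjusted p = 0.00208), but they were opposite in sign and the interaction of -1.30 ± 0.20 was called (adjusted p = 0.000142).

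The other thiolase genes were lower throughout. KAT1, which shares 81.1% of aligned transcript bases with KAT2 and stretches of up to 53 bases, averaged FPKM 90.2 ± 9.36 (SD, n = 3) in 32S, 20.1 ± 3.68 in 32E, 23.9 ± 1.3 in AC and 14.3 ± 5.47 in BC, and rose from BC to 32S (2.62 ± 0.22 SE, limma adjusted p = 5.91e-07). KAT5, which has peroxisomal and cytosolic forms, was listed at 0 in all AC libraries and was at FPKM 9.05, 16.2 and 7.73 in BC, 1.64, 2.61 and 2.03 in 32E and 23.2, 39.7 and 29.0 in 32S. Like KAT2 it was called lower in AC than in BC and lower in 32E than in 32S (-3.33 ± 0.29, adjusted p = 8.2e-07). Unlike KAT2 it was called higher in 32E than in AC (1.62 ± 0.29, adjusted p = 0.00066). It was also called higher in 32S than in BC (1.43 ± 0.29, adjusted p = 0.000802), and its interaction of 0.19 was not called. KAT5 overlaps a gene on the opposite strand by 160 bases, so its values may include that gene's reads. How reads were divided between KAT1 and KAT2 was not examined either.

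Genes that support β-oxidation were then examined from a list of 10, of which all were tested. In 32S against BC all 10 rose and 0 fell, where 25.3% and 26.7% of tested genes did so, and the median was 2.16. In 32E against 32S all 10 were called lower (22.6% of tested genes), with a median of -2.69. From AC to 32E, 1 rose and 2 fell (13.1% and 14.3%). In AC against BC, 2 were called higher and 1 lower (19.0% and 18.4%). SDRA, a short-chain dehydrogenase gene with a role in the response to indole-butyric acid, was at FPKM 10.5, 22.1 and 13.3 in BC and 191, 210.5 and 199 in 32S (3.69 ± 0.20 SE, limma adjusted p = 1.83e-08). At 83.2, 69.4 and 84.55 in AC, it was called higher there than in BC (2.35 ± 0.20, adjusted p = 1.82e-06). DECR, a dienoyl-CoA reductase gene that serves unsaturated chains, was at 54.4, 76.95 and 54.1 in BC and 461, 653 and 507 in 32S (3.11 ± 0.17, adjusted p = 1.8e-08). ECI3, an enoyl-CoA isomerase gene, was listed at 0 in every AC and BC library and was at 27.5, 84.7 and 39.8 in 32S, with its highest value in the library that stood apart. ACN1, a peroxisomal acetate-activating enzyme gene, was called in all 4 comparisons, its mean being 48.1 in 32S, 6.01 in 32E, 24.5 in AC and 6.86 in BC.

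**Figure D5:**
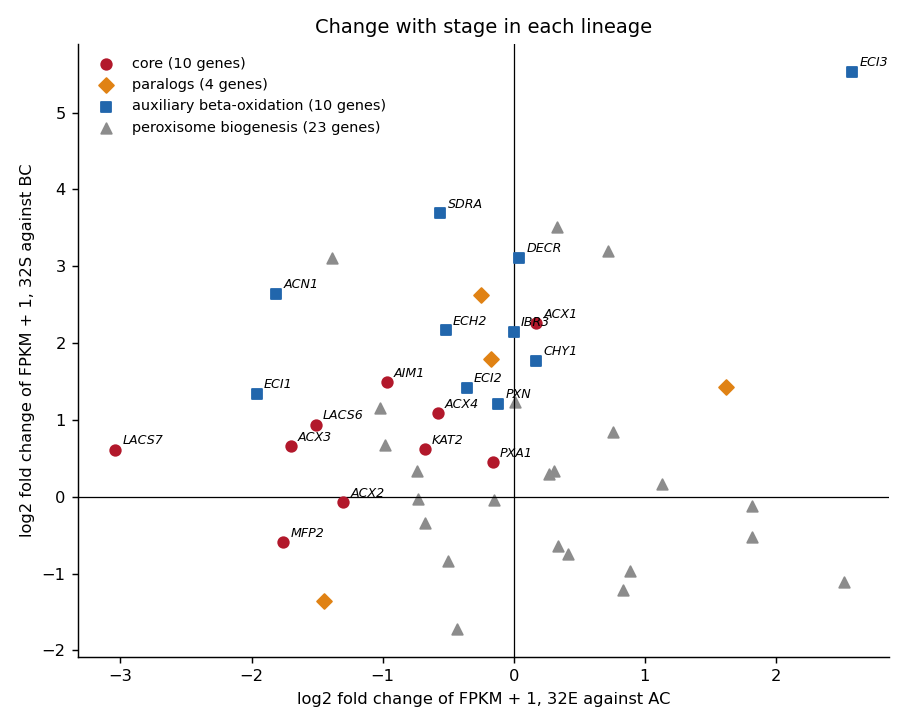
Log2 fold change of FPKM + 1 with stage in the apical lineage (horizontal axis, 32E against AC) and in the basal lineage (vertical axis, 32S against BC) for 4 gene lists, 1 point per tested gene. All 10 auxiliary genes lie above 1 on the vertical axis, while LACS7 and MFP2 lie farthest left among the core, at -3.04 and -1.76.

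Genes of the peroxisome itself moved less uniformly. Of 24 biogenesis genes, 23 were tested, and 5 rose and 3 fell from BC to 32S, where 25.3% and 26.7% of all tested genes did so, with a median of -0.0298 beside 0 over all genes. In AC against BC, 9 were called lower and 1 higher (18.4% and 19.0% of tested genes). In 32E against 32S, 5 were called lower, 1 higher and 17 not called (22.6% of tested genes lower, 23.8% higher). The median there was -0.159 beside 0.0479 over all genes. PEX11D and PEX11E, members of the family that drives peroxisome elongation and division, were at FPKM 165 ± 2.37 and 242.5 ± 13.9 (SD, n = 3) in 32S against 1.75 and 49.7 in 32E (-6.15 and -2.27 for 32E against 32S, limma adjusted p = 3.73e-07 and 2.16e-07). PEX11C of the same family ran the other way, with means of 41.9 in 32E and 16.6 in 32S (1.35 ± 0.22 SE, adjusted p = 0.000214). PEX10, a membrane RING-finger protein gene, was at 21.6 in AC and at 0, 1.27 and 0 in BC. Of 8 genes for handling peroxide and redox in the peroxisome, 7 were tested, with 3 lower and 0 higher in 32E than in 32S (22.6% and 23.8% of tested genes) and 2 higher and 1 lower in 32S than in BC (25.3% and 26.7%). CAT1, which encodes a catalase that removes hydrogen peroxide, was at FPKM 319, 324 and 336 in 32S and 32.0, 38.7 and 29.7 in 32E (-3.26 ± 0.10, adjusted p = 2.3e-10). PMDH2, the redox gene that was lower in 32S than in BC, was at 4.56, 3.82 and 4.2 in BC. It was at most 0.78 in 32S, 0.38 in AC and 1.87 in 32E, and passed the filter on low values only through its BC libraries. Its call therefore describes it and carries no test.

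The acetyl-CoA released can enter the glyoxylate cycle, whose 2 enzyme genes were listed with 3 peroxisomal citrate synthase genes. Of these 5, 4 were tested, and 2 rose and 1 fell from BC to 32S (25.3% and 26.7% of tested genes), while 3 were lower and 0 higher in 32E than in 32S (22.6% and 23.8%). ICL, the isocitrate lyase gene, was at FPKM 127, 125.2 and 122.6 in 32S and at most 0.39 in any BC library (6.67 ± 0.17 SE), and was listed at 0 in AC and 32E. It passed the filter on low values only through its 32S libraries. Its place among the 2 that rose and the 3 that were lower in 32E therefore describes it and carries no test. MLS, the malate synthase gene that acts next to ICL, fell from 6.56, 5.07 and 7.81 in BC to 0.5, 0.85 and 0.67 in 32S (-2.15 ± 0.21, limma adjusted p = 2.34e-06). The pair of glyoxylate enzymes therefore moved in opposite directions. CSY2 was at FPKM 221 ± 4.57 (SD, n = 3) in 32S and 10.2 ± 2.65 in 32E (-4.34 ± 0.16 SE, adjusted p = 5.48e-10), and rose from BC. CSY3 was also lower in 32E than in 32S (-1.56 ± 0.29, adjusted p = 0.000539), with -0.79 ± 0.29 in 32S against BC (adjusted p = 0.0303). CSY1 was at most 0.14 in any library.

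Since ACX1 and AIM1 also serve jasmonate synthesis, other genes of jasmonate synthesis and conjugation were listed. Of 9, 6 were tested, and from BC to 32S 1 rose and 1 fell (25.3% and 26.7% of tested genes). In 32E against 32S, 2 were higher and 1 lower (23.8% and 22.6%). OPCL1, which activates the jasmonate precursor in the peroxisome, rose from below FPKM 0.2 in every BC library to 9.18, 26.0 and 16.1 in 32S (3.99 ± 0.59 SE, limma adjusted p = 7.19e-05). It was at 8.91, 16.7 and 8.96 in AC and 4.84, 6.17 and 32.95 in 32E, so 32S overlapped both and only BC stood apart. OPR3, the reductase that makes the jasmonate precursor, was listed at 0 in all BC and 32S libraries and was at FPKM 6, 4.54 and 5.96 in 32E. It was at most 0.95 in AC and passed the filter on low values only through its 32E libraries. Its place among the 2 that were higher in 32E therefore describes it and carries no test. AOC4, an allene oxide cyclase gene, was also higher in 32E, at 12.9, 7.71 and 3.59, than in 32S, at 1.57, 0 and 0.88 (2.28 ± 0.46, adjusted p = 0.000959). JAR1, which joins jasmonate to isoleucine, fell from BC to 32S (-1.76 ± 0.27, adjusted p = 0.00011).

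Genes known to respond to wounding and touch were listed as well. Of 8, 7 were tested, and 4 rose and 1 fell from BC to 32S (25.3% and 26.7% of tested genes), while 3 were lower and 1 higher in 32E than in 32S (22.6% and 23.8%). The summed FPKM of the 8 was 118.8 to 160.6 in BC, 1005 to 1190 in 32S, 250.1 to 257.6 in AC and 230.9 to 635.4 in 32E, with 1 gene listed at 0 in every 32S library. JAZ1, a repressor gene induced by jasmonate, was at FPKM 133, 210.3 and 154.5 in 32S and at 0, 0.11 and 0 in BC. TCH4, a touch-induced gene of wall remodelling, held most of that sum, at 819, 887 and 843 in 32S. JAZ5 was also among the 4 that rose, at 2.28, 5.16 and 3.28 in 32S and 0 in every BC library. It was at most 0.05 in AC and at 0, 1.61 and 3.4 in 32E. Without its 32S libraries JAZ5 would not have passed the filter on low values. Its place among the 4 therefore describes it and carries no test. JAZ10, another jasmonate-induced repressor gene, went the other way, at 8.04, 6.93 and 7.72 in 32S and 39.4, 50.4 and 79.4 in 32E (2.69 ± 0.21 SE for 32E against 32S, limma adjusted p = 3.79e-07). The summed level was higher in every 32S library than in any 32E library, as was the summed core, and its part in the result was not tested. In AC against BC, 1 of the 7 tested was called higher, JAZ1 (3.8 ± 0.77 SE, limma adjusted p = 0.00113), and 0 lower (19.0% and 18.4% of tested genes).

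The tested gene whose pattern was most like each member was sought by the mean absolute difference of centred log2(FPKM + 1) over the 12 libraries. No member was the nearest gene of another. The closest members were ACX3 and LACS6 (0.178), with LACS6 at rank 3 for ACX3 and ACX3 at rank 6 for LACS6. At the other end, the nearest member to PXA1 was ACX2, at rank 2787. The closest match was between AIM1 and AT3G05500 (0.0851), whose mean FPKM was 831 in 32S, 114 in 32E, 227 in AC and 279 in BC. LACS6 was nearest to PLDALPHA1 (0.101), a phospholipase D gene, PXA1 to FAB1 (0.107), a gene of fatty acid synthesis, and ACX3 to SAMDC (0.126), which acts in polyamine synthesis. ACX4 was nearest to AVA-P2 (0.142), a subunit gene of the vacuolar proton pump, and KAT2 to UXS4 (0.161), a UDP-xylose synthase gene. ACX1 was nearest to AT5G51160 (0.0935), which was listed at 0 on average in AC and BC and averaged FPKM 4.66 in 32S. With 1 added to each FPKM such low values lie close together, so this match rests on the pseudocount. MFP2 was nearest to AT1G48490 (0.132) and ACX2 to AT1G80610 (0.155), and LACS7 had the least close match (DDF1, 0.281).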

How the data were processed

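The authors removed adapters with Cutadapt, mapped reads to TAIR10 and computed FPKM with RSEM, which gives a multi-mapping read to several genes in part. The methods name Bowtie 2 and the submitters' processing notes TopHat2 2.1.1, so the aligner is not settled. The deposited files hold FPKM to 2 decimals for 32399 genes in 12 libraries and no counts, so no counting intervals or floors are given.

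Libraries were grouped by their labels, with 3 biological replicates per group. Equal replicate numbers were not taken as pairs, since none of 18 same-numbered pairs deviated together (r from -0.125 to 0.066). FPKM was transformed as log2(FPKM + 1) and fitted with limma 3.58.1 (R 4.3.3, trended prior) in 1 model of 4 groups, over 17060 genes above FPKM 1 in at least 3 libraries. Calls needed a log2 change of at least 1 in size with an adjusted p below 0.01 (Benjamini-Hochberg), the numbers the study's own test used on counts not analysed here. Ratios were compared by exact permutation. Symbols, positions and upstream windows came from RefSeq's TAIR10.1 annotation. Python 3.11.15, numpy 2.4.6, pandas 2.3.3, scipy 1.17.1 and matplotlib 3.10.9 were used.

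Named genes were all members, 4 paralogs, the nearest gene of each member and markers that check the labels. Per list, genes came from the 4 largest called changes of a comparison. CSY1 and JAZ5 were named after their values were seen. Members and lists were chosen with earlier results of these data known. Alternatives were other pseudocounts, filters and scalings, a replicate block, fits restricted to the groups being compared, and leaving out each library.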

Additional observations from a re-analysis of the deposited data

Results flagged for a closer look

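For 8 of the 10 core genes the difference between lineages was not the same at the 1-cell and 32-cell stages, by limma's interaction (32E minus 32S, less AC minus BC, log2 of FPKM + 1). The acyl-CoA synthetase genes LACS7 and LACS6 had values of -3.65 and -2.45 (limma adjusted p = 3.08e-05 and 6.33e-06). AIM1 followed at -2.46 and MFP2 at -1.17 (adjusted p = 8.82e-08 and 0.000188). The oxidase genes ACX3, ACX1 and ACX4 had -2.36, -2.09 and -1.67 (adjusted p = 7.7e-06, 5.6e-07 and 3e-05), and the thiolase gene KAT2 had -1.30 (adjusted p = 0.000142). In all 8 the 32E libraries were the lower ones at the later stage, in 3 of 3 libraries. Negative calls made up 25.8% of all tested genes.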

How the results depend on the processing

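Counts of core genes called in each direction stayed within 1.5 times, or at 0 where they were 0, in all 208 recomputations. Leaving out each library in turn gave 2 to 2 genes lower in AC than in BC, 9 to 9 lower in 32E than in 32S, 5 to 6 lower in 32E than in AC, 3 to 4 higher in 32S than in BC and 8 to 9 with a negative interaction. The replicate number as a block changed none of these counts from 2, 9, 5, 3 and 8, over all genes it moved the interaction calls from 9016 to 8824, and 12 of 36 best partners shared a number. Single values gave 1039 recomputations on the same side, 12 that passed a threshold they had missed, 3 that lost it and 6 that changed sign. None of the sign changes was of a called value, and the cause was not tested. With 1 library left out, LACS6 in AC against BC ranged from -0.22 to 0.10 (without AC replicate 1), PXA1 in 32E against AC from -0.33 to 0.00 (without AC replicate 2) and ACX2 in 32S against BC from -0.25 to 0.16 (without 32S replicate 2, with 0.02 without BC replicate 3). ACX2 there became 0.21 under median-ratio scaling. The log2 ratio of ACX1 to ACX3 between 32E and 32S became -0.02 with 1 added to each FPKM. The lost calls were ACX2 in 32E against AC (-1.30, adjusted p = 0.012 in a model of only these groups), ACX4 in 32S against BC (0.95 with a common sum) and the interaction of MFP2 (-0.99 with pseudocount 5). LACS6 in 32S against BC passed at 1.22 under median-ratio scaling, which moved the median of all genes there from 0 to 0.145. A ratio of KAT2 to KAT5 without an added value could not be given, since KAT5 was listed at 0 in AC. The files hold no counts, so the counting error of low values such as LACS7 in 32E was not computed.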
